A study of Mus musculus with 11 samples.

Results

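This account concerns 30 mouse genes that encode translation initiation factors, chosen by gene symbol: eIF1 and eIF1A (3 genes), eIF2 (3), its exchange factor eIF2B (5), eIF3 (13), eIF5, eIF5B and eIF6 (3), and eIF4H, DENR and MCT-1 (3). All 30 were found among the 21957 genes of the table. The cells were primed OT1 CD8 T cells, which carry a transgenic T cell receptor for an ovalbumin peptide and which the design text calls memory cells. The stimulated group had CD3/CD28 beads for 2 h, and the unstimulated group rested for the same time and is labelled T0. Both groups then had 10 min of cycloheximide, which stalls elongating ribosomes, so no library shows cells without that drug. Messenger RNA was measured in 3 stimulated and 3 unstimulated libraries, and ribosome footprints, the stretches of mRNA covered by ribosomes, in 2 stimulated (replicates 2 and 3) and 3 unstimulated libraries. The labels do not say whether replicates came from separate animals or cultures, so p-values measure the spread between these libraries, which may be technical.

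Initiation is the step at which the small ribosomal subunit is loaded with initiator tRNA, brought to an mRNA and moved to the start codon. eIF2 carries the initiator tRNA together with GTP, and eIF2B recharges eIF2 with GTP after each round, which makes it the point where the integrated stress response slows synthesis. eIF3 is the large scaffold that binds the small subunit, eIF1 and eIF1A keep the scanning subunit open and selective, and eIF5 and eIF5B act when the start codon is found. In T cells, antigen receptor signals are known to raise the rate of protein synthesis within hours.

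RNA libraries held 21658263 to 39346699 counts and footprint libraries only 11136 to 23641. The 5 CD8 T cell markers were all detected, with a summed 1196 to 1516 CPM (counts scaled to library size) in stimulated and 1669 to 2006 CPM in unstimulated RNA. Summed markers of CD4 or regulatory T cells were at 19.8 to 22.7 CPM in stimulated and 12.6 to 12.8 CPM in unstimulated RNA, a gap that came from Cd40lg (14.6 to 17.5 CPM in stimulated and 6.97 to 9.89 CPM in unstimulated RNA) while Cd4 and Foxp3 overlapped. Those of NK cells were at 1.46 to 2.40 CPM in stimulated and 0.788 to 1.33 CPM in unstimulated RNA, and those of B cells, myeloid cells, dendritic cells and erythroid cells overlapped between groups and reached at most 16.9 CPM in any RNA library. The part of such cells in the results was not tested. The RNA libraries did not split by stimulation alone: Gm10800, Gm10801, Gm20594 and Lars2 together took 25.01, 22.5 and 12.8% of counts in stimulated replicates 1, 2 and 3, and 4.09, 14.9 and 5.14% in unstimulated replicates 1, 2 and 3. Genes under 10 CPM had a median log2 change of 1.03, and 88.3% of the 10394 were above 0. The 8492 genes of at least 10 CPM had a median of -0.09, and 41.2% were above 0. The zero point of a log2 change therefore differs between a scaling over all genes and a scaling over well-expressed genes. Both are given below. The main test used the quasi-likelihood method of edgeR over 18886 genes. The restricted test used the same method over 8494 genes of at least 10 CPM, which includes every member. Adjusted p-values are Benjamini-Hochberg over all genes of each test, and a call means an adjusted p under 0.05. Less RNA per cell and fewer cells that express a gene cannot be told apart in such bulk samples.

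In the main test 4 of the 30 members rose in RNA and none fell, against 3.58% of all 18886 genes called higher and 4.66% called lower. The 4 were Eif1a, Eif2b3, Eif3g and Eif3j1. At an unadjusted p under 0.05 there were 8, all with a change above 0, against 20.5% of genes. These calls were sensitive to single libraries. None was left without stimulated RNA replicate 1 or 2 or without unstimulated RNA replicate 3, and 2 were left without unstimulated RNA replicate 1. Without stimulated RNA replicate 3, 6 members were called higher and 2 lower, and without unstimulated RNA replicate 2, 6 were called higher and 8 lower. Calls among all genes moved too, to 27% without stimulated RNA replicate 3 and 67.8% without unstimulated RNA replicate 2, at or above the members' share. In the restricted test 25 of 30 rose and none fell, against 36.9% of 8494 genes called higher and 36.4% called lower. The 5 without a call there were Eif3f, Eif2b2, Eif2b4, Eif4h and Mcts1, and leaving out any RNA library left 25 to 27 called higher and none lower. The median log2 change of the members was 0.26 in the main test, against 0.39 for all genes, and 0.35 in the restricted test, against 0.00 for all genes. All 30 lay above the median of the genes of at least 10 CPM in the main test. The sign of a member's change depended on the scaling or on a single library for 16 members. The other 14 stayed above 0 under every alternative tried: Eif1a, Eif1ax, Eif2s1, Eif2b3, Eif3a, Eif3b, Eif3c, Eif3d, Eif3g, Eif3j1, Eif5, Eif5b, Eif6 and Denr. On the main scale the stimulated libraries lay above every unstimulated library for 12 members and below for none, against 15.4% and 13.6% of genes. On the restricted scale they lay above for 25 members and below for none, against 38% and 38.1% of genes.

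**Figure D1:**
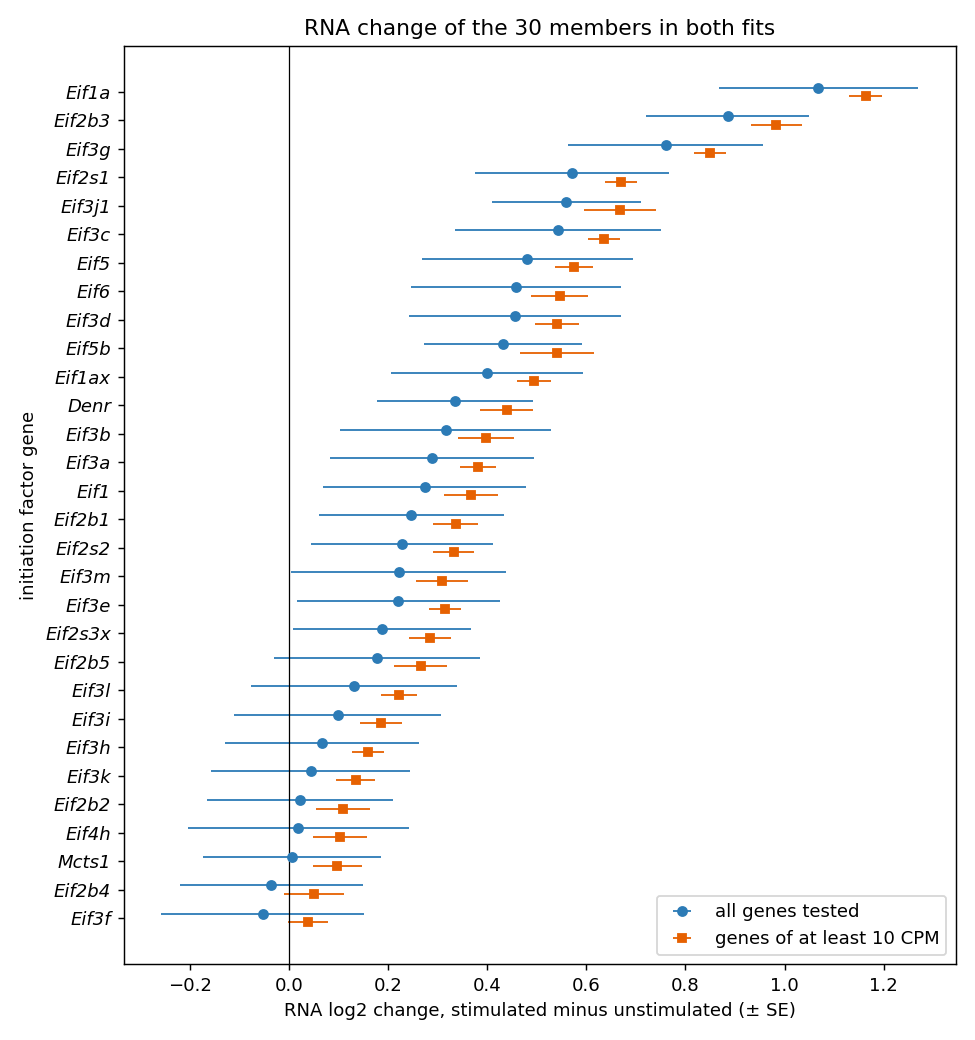
RNA log2 change of each member, stimulated minus unstimulated, with standard errors (horizontal axis), in the main test over all genes (circles) and in the restricted test over genes of at least 10 CPM (squares); 3 libraries per group. The restricted test moved every member up by about 0.1 and had far smaller errors; Eif1a is at the top in both and Eif3f at the bottom.

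The summed RNA of the 30 members came to 4869, 5529 and 7409 CPM in stimulated replicates 1, 2 and 3, against 4904, 4381 and 4842 CPM in unstimulated replicates 1, 2 and 3. On that scale stimulated replicate 1 lay within the unstimulated range and replicate 3 far above it. On the restricted scale the same sums were 6085, 6231 and 6305 CPM in stimulated libraries, against 4666, 4543 and 4652 CPM in unstimulated libraries. There the groups did not overlap, and the stimulated mean was 1.34 times the unstimulated mean. The libraries with the lower main-scale sums within each group were those with the larger share of the 4 genes above, and the part of that share in the sums was not tested.

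Among the factors of the scanning subunit, Eif1a rose about 2-fold. Eif1a encodes eIF1A, which holds the small subunit in its open scanning form. It had 235.2, 269.2 and 347.7 CPM in stimulated replicates 1, 2 and 3, against 144, 126 and 137 CPM in unstimulated replicates 1, 2 and 3. All 3 stimulated libraries were higher than all 3 unstimulated ones. The log2 change was 1.07 ± 0.20 (SE, n = 3 each; edgeR adjusted p = 0.00744), and 1.16 ± 0.03 in the restricted test (edgeR adjusted p = 6.82e-09). Its X-linked near copy Eif1ax encodes almost the same protein. Eif1ax changed by 0.40 ± 0.19 in the main test (edgeR adjusted p = 0.267) and rose by 0.50 ± 0.03 in the restricted test (edgeR adjusted p = 1.08e-06). A ratio inside a library does not depend on scaling. Of the reads of both copies together, Eif1a took 68.6, 69.1 and 68.6% in stimulated libraries, against 58.4, 58.6 and 57.2% in unstimulated libraries, with no overlap. How the authors' counting divided reads that match both copies is not given in the sources used here, so the split between these copies is uncertain.

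Eif1, whose product guards against wrong start codons, had 105, 117 and 160 CPM in stimulated libraries and 114, 89.9 and 111 CPM in unstimulated libraries, with overlap. Its log2 change was 0.27 ± 0.20 in the main test (edgeR adjusted p = 0.380), and it rose by 0.37 ± 0.05 in the restricted test (edgeR adjusted p = 0.000215). Eif1 made up 81.8 to 83.0% of the reads of Eif1 and its copy Eif1b in stimulated libraries and 80.8 to 82.3% in unstimulated libraries. The 3 genes of eIF1 and eIF1A together made up 9.00 to 9.19% of all member counts in stimulated libraries, against 6.95 to 7.34% in unstimulated libraries.

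The 3 subunits of eIF2 all rose in the restricted test, against 36.9% of all genes called higher there, and none passed in the main test. Eif2s1 (ENSMUSG00000021116, chr12:78862072-78887010 in GRCm38.p6) encodes the alpha subunit, which stress kinases phosphorylate. It had 246, 266 and 348 CPM in stimulated replicates 1, 2 and 3, against 198, 180 and 201 CPM in unstimulated replicates 1, 2 and 3. The groups did not overlap. Its log2 change was 0.57 ± 0.20 (edgeR adjusted p = 0.107) and 0.67 ± 0.03 in the restricted test (edgeR adjusted p = 1.19e-07). Eif2s2, the beta subunit, rose in the restricted test by 0.33 ± 0.04, and Eif2s3x, the X-linked gene of the gamma subunit that binds GTP and the initiator tRNA, by 0.28 ± 0.04. On the main scale the groups of both genes overlapped. Over the alternatives tried, the log2 change ranged from -0.07 to 0.33 for Eif2s2 and from -0.15 to 0.28 for Eif2s3x. Eif2s1 took 53.8 to 54.7% of eIF2 counts in stimulated libraries, against 47.6 to 48.7% in unstimulated libraries. Eif2s3x took 30.1 to 32.1% of the reads of the gamma gene pair (Eif2s3x and its Y-linked copy Eif2s3y) in stimulated libraries, against 27.4 to 28.0% in unstimulated libraries, with the same doubt on reads that match both.

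In eIF2B a single subunit, Eif2b3, rose in the main test, against 3.58% of all genes called higher. Eif2b3 (ENSMUSG00000028683, chr4:117019399-117086852), which encodes the gamma subunit, had 41.3, 45.9 and 58.8 CPM in stimulated replicates 1, 2 and 3, against 25.9, 26.6 and 26.5 CPM in unstimulated replicates 1, 2 and 3. Every stimulated library exceeded every unstimulated one. It rose by 0.89 ± 0.16 on the log2 scale (edgeR adjusted p = 0.00715), and by 0.98 ± 0.05 in the restricted test. Its share of eIF2B counts was 19.03, 18.14 and 16.97% in stimulated libraries, against 10.97, 12.57 and 11.14% in unstimulated libraries. The gamma subunit pairs with the epsilon subunit, Eif2b5, in the catalytic part of the complex. Eif2b5 changed by 0.18 ± 0.21 in the main test (edgeR adjusted p = 0.537) and rose by 0.27 ± 0.05 in the restricted test. Eif2b1, the alpha subunit, rose by 0.34 ± 0.05 in the restricted test. Eif2b2 and Eif2b4, the beta and delta subunits of the regulatory part, passed in neither test. Their shares of eIF2B counts were lower without overlap, at 0.85 and 0.82 times the unstimulated mean. Such separation was common, since 38.1% of genes of at least 10 CPM were lower without overlap on the restricted scale. Eif2b4 had 20.1, 21.5 and 32.8 CPM in stimulated libraries and 26.4, 24.0 and 25.8 CPM in unstimulated libraries, a log2 change of -0.04 ± 0.19 in the main test (edgeR adjusted p = 0.894) and 0.05 ± 0.06 in the restricted test. On the main scale Eif2b4 was called lower without unstimulated RNA replicate 2 (-0.35, edgeR adjusted p = 0.00665) or stimulated RNA replicate 3 (-0.30, edgeR adjusted p = 0.0184).

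The 13 eIF3 genes together made up 54.3 to 55.0% of member counts in stimulated RNA libraries, against 56.2 to 57.4% in unstimulated libraries. The share of eIF2B was lower too, at 0.94 times the unstimulated mean, and that of eIF2 higher, at 1.05 times, each without overlap. For eIF2 the gap was narrow, with 8.58% in stimulated replicate 3 against 8.55% in unstimulated replicate 2. Separation was common among single genes of at least 10 CPM, of which 38% were higher and 38.1% lower without overlap on the restricted scale. The eIF3 genes moved by unequal amounts. In the main test 2 rose, Eif3g and Eif3j1, against 3.58% of all genes called higher, and in the restricted test all rose except Eif3f, against 36.9%. Eif3g (ENSMUSG00000070319, chr9:20894349-20898590 in GRCm38.p6) encodes a small RNA-binding subunit on the mRNA entry side. It had 100.03, 114.6 and 156.7 CPM in stimulated replicates 1, 2 and 3, against 74.9, 69.6 and 74.6 CPM in unstimulated replicates 1, 2 and 3. The groups did not overlap, and the log2 change was 0.76 ± 0.20 (edgeR adjusted p = 0.0353) in the main test and 0.85 ± 0.03 in the restricted test. Eif3j1 encodes the loosely bound j subunit. It had 46.5, 45.5 and 56.3 CPM in stimulated libraries and 33.7, 33.9 and 33.0 CPM in unstimulated libraries. It rose by 0.56 ± 0.15 (edgeR adjusted p = 0.0430) and by 0.67 ± 0.07 in the restricted test. Its near copy Eif3j2 had at most 27 counts in any RNA library.

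Eif3c, a scaffold subunit that contacts eIF1 and eIF5, had 452, 529 and 685 CPM in stimulated libraries and 394, 362 and 388 CPM in unstimulated libraries, without overlap. Its log2 change was 0.54 ± 0.21 in the main test (edgeR adjusted p = 0.154) and 0.64 ± 0.03 in the restricted test (edgeR adjusted p = 1.71e-07). Eif3a, the largest scaffold subunit, had 485, 546 and 719 CPM in stimulated libraries and 482, 473 and 477 CPM in unstimulated libraries. There the lowest stimulated library was barely above the highest unstimulated one. At the other end stood Eif3f (ENSMUSG00000031029, chr7:108934415-108941942), which encodes a subunit with an MPN domain. It had 143, 157 and 217 CPM in stimulated replicates 1, 2 and 3, against 185, 161 and 190 CPM in unstimulated replicates 1, 2 and 3. Its groups overlapped, with a log2 change of -0.05 ± 0.20 in the main test (edgeR adjusted p = 0.854) and 0.04 ± 0.04 in the restricted test (edgeR adjusted p = 0.406). On the main scale it was called lower without unstimulated RNA replicate 2 (-0.39, edgeR adjusted p = 0.00316).

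Shares of the eIF3 counts within a library do not depend on scaling. Counts were not divided by length, so shares are compared between groups and not between subunits. Eif3g took 3.78, 3.79 and 3.85% of eIF3 counts in stimulated libraries, against 2.72, 2.77 and 2.73% in unstimulated libraries. Eif3c took 16.8 to 17.5% in stimulated libraries, against 14.2 to 14.4% in unstimulated libraries. The shares of Eif3d, a subunit that can bind the cap of certain mRNAs, and of Eif3j1 were also higher without overlap. Eif3f took 5.39, 5.18 and 5.33% in stimulated libraries, against 6.70, 6.40 and 6.96% in unstimulated libraries. The shares of Eif3h, Eif3i, Eif3k and Eif3l were lower without overlap too, at 0.85 to 0.90 times the unstimulated mean. Those of Eif3a, Eif3b, Eif3e and Eif3m overlapped. For comparison, 38% of all genes of at least 10 CPM were higher and 38.1% lower without overlap on the restricted scale, so groups without overlap were common. A fall of a share is not a fall of the RNA: Eif3h, Eif3i, Eif3k and Eif3l rose by 0.13 to 0.22 in the restricted test, although on the main scale the sign of each depended on the scaling or on a single library.

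**Figure D2:**
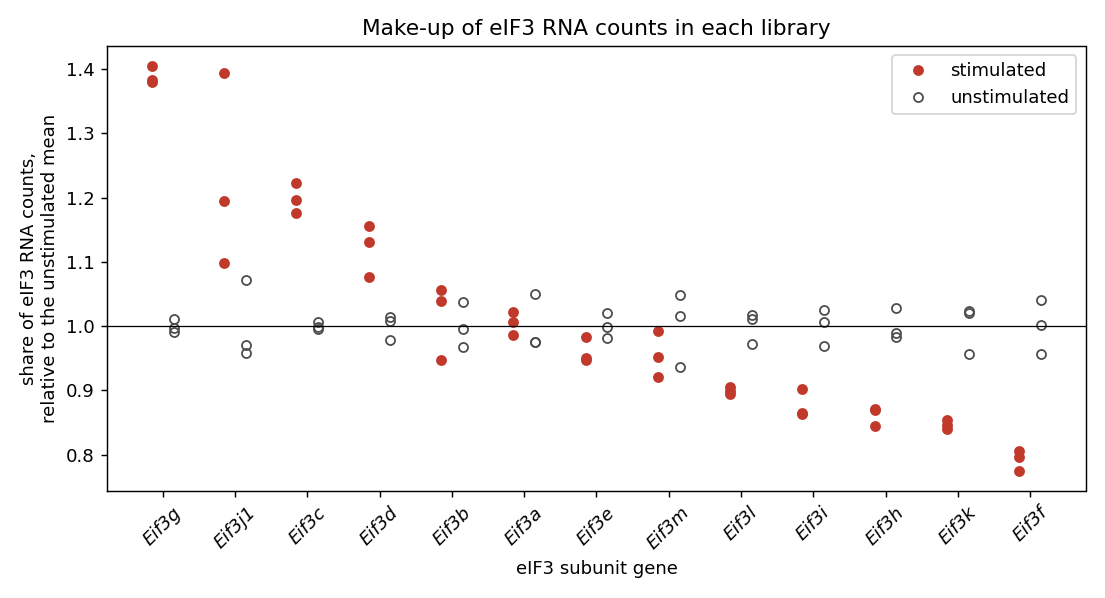
Share of each of the 13 genes in the eIF3 RNA counts of a library, divided by its mean share in the unstimulated libraries (vertical axis), with 1 point per library, stimulated (filled, left) and unstimulated (open, right). Eif3g stands highest, at 1.39 times the unstimulated mean, and Eif3f lowest, at 0.79 times.

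The annotated start sites of some of these genes are shown because mRNAs of several eIF3 subunits are known in mammals as TOP mRNAs. These begin with a C followed by a run of pyrimidines and are translated under the control of mTOR. The sequences are from the RefSeq promoter table (GRCm38.p6), 15 bases before and 15 from the annotated start, on the strand of the gene, with the longest run of C and T that begins with C near the start in capitals. They are Eif3f at chr7:108934400-108934429 (plus strand), Eif3l at chr15:79075208-79075237 (plus strand), Eif2s3x at chrX:94212637-94212666 (minus strand), and, without such a run, Eif3g at chr9:20898576-20898605 (minus strand) and Eif3c at chr7:126566352-126566381 (minus strand).
Eif3f: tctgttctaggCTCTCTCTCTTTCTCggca
Eif3l: gcgcggagttcttcttccgCTCTCTCCCac
Eif2s3x: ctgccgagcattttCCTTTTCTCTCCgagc
Eif3g: tctttacccgggctgggagctgcgtggagt
Eif3c: ctcacctgctcagagggactcggcagctta
The run of Eif3f was 15 bases long, that of Eif2s3x 12 and that of Eif3l 9. A run of at least 5 bases that began with C within 5 bases of the annotated start was present in 6 of the 24 members with an entry (25%), which were Eif2b2, Eif2b5, Eif2s3x, Eif3b, Eif3f and Eif3l, against 18.3% of 32851 promoters. The motif CACGTG, which reads the same on both strands, was present within 250 bases before to 50 after the start in 4 of 24 members (16.7%), which were Eif3a, Eif3f, Eif3k and Eif4h, against 7.15% of promoters. Start sites used in these cells were not measured, and a match describes letters only.

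Of the factors that act at subunit joining, Eif5 encodes the protein that makes eIF2 hydrolyse its GTP. It had 571, 630 and 852 CPM in stimulated replicates 1, 2 and 3, against 522, 442 and 507 CPM in unstimulated replicates 1, 2 and 3. The groups did not overlap. The log2 change was 0.48 ± 0.21 in the main test (edgeR adjusted p = 0.227) and 0.58 ± 0.04 in the restricted test (edgeR adjusted p = 8.46e-07). Eif5b, the GTPase that joins the large subunit, rose by 0.54 ± 0.07 in the restricted test, and Eif6, which keeps free large subunits apart from small ones, by 0.55 ± 0.06. These 3 genes made up 15.4 to 15.6% of member counts in stimulated libraries, against 13.7 to 14.2% in unstimulated libraries.

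The remaining group changed least. Eif4h encodes a helper of the helicase eIF4A. It had 263, 311 and 441 CPM in stimulated libraries and 356, 298 and 347 CPM in unstimulated libraries, with overlap. Its log2 change was 0.02 ± 0.22 in the main test (edgeR adjusted p = 0.953) and 0.10 ± 0.05 in the restricted test (edgeR adjusted p = 0.109). DENR and MCT-1 form a dimer that acts in recycling and reinitiation. Mcts1 had 34.2, 34.8 and 50.9 CPM in stimulated libraries and 41.6, 38.1 and 39.6 CPM in unstimulated libraries, and it passed in neither test, whereas its partner Denr rose by 0.44 ± 0.05 in the restricted test. These 3 genes made up 7.02 to 7.43% of member counts in stimulated libraries, against 8.55 to 8.97% in unstimulated libraries.

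In footprints the members together had 145 and 206 counts in stimulated replicates 2 and 3, against 67, 78 and 77 counts in unstimulated replicates 1, 2 and 3. That is 0.696 and 0.871% of the stimulated libraries, against 0.602, 0.535 and 0.505% of the unstimulated libraries. Both stimulated libraries were above all unstimulated ones. Most of the difference was in eIF3, with 121 and 148 footprints in stimulated libraries, against 48, 62 and 49 in unstimulated libraries. This is 5998 ± 449 CPM (SD, n = 2) against 3944 ± 622 CPM (SD, n = 3), a ratio of 1.52. The other 17 members had 24 and 58 footprints in stimulated libraries, against 19, 16 and 28 in unstimulated libraries, and their shares of the libraries overlapped. Set against the summed RNA, the log2 change of the members' footprints was 0.17, and it was -0.026 without stimulated footprint replicate 3. No test was run on these sums.

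**Figure D3:**
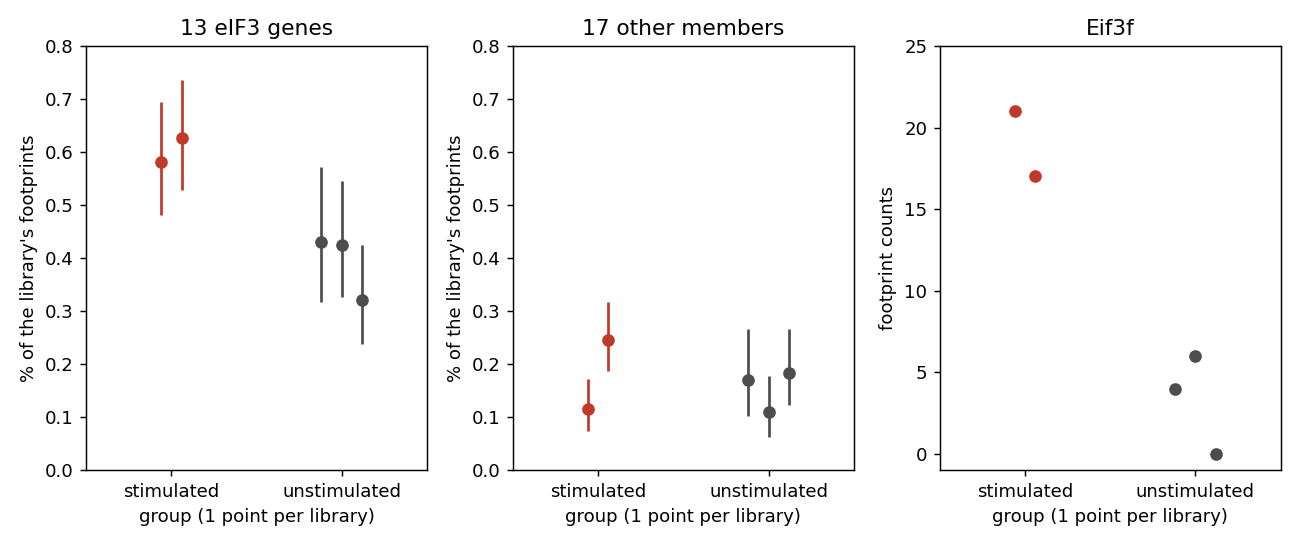
Footprints by library, stimulated (left) and unstimulated (right), 1 point per library: the percent of a library's footprints in the 13 eIF3 genes and in the 17 other members, with exact 95% counting intervals, and the footprint counts of Eif3f. The eIF3 share is higher in both stimulated libraries, the share of the other members overlaps, and Eif3f has 21 and 17 footprints in stimulated libraries against 4, 6 and 0 in unstimulated libraries.

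Depth limits what single genes can show. Only 5 members, Eif3a, Eif3b, Eif3c, Eif3f and Eif3l, had enough footprints for the edgeR test, and none was called, against 5.47% of the 256 genes tested called higher and 3.52% called lower. At an unadjusted p under 0.05 there was 1 of 5, against 20.3% of the 256 genes. Of the other tools, limma voom also called 0, and so did DESeq2, which gave Eif3f no adjusted p. Without unstimulated footprint replicate 1 or 2, 1 member, Eif3f, was called higher, but Eif3f had reached the test only through the 2 stimulated libraries. Eif3f had 21 and 17 footprints in stimulated replicates 2 and 3, against 4, 6 and 0 in unstimulated replicates 1, 2 and 3. Its footprint log2 change was 1.75 ± 0.76 (edgeR adjusted p = 0.146). Eif3c had 16 and 25 in stimulated libraries, against 12, 9 and 9 in unstimulated libraries. Eif3a had 15 and 23 in stimulated libraries, against 7, 12 and 6 in unstimulated libraries. In Eif3b the corresponding counts were 10 and 18 in stimulated libraries, against 1, 10 and 7 in unstimulated libraries. In counts scaled to library size, the last 3 genes overlapped between groups. Eif3l, with 15 and 14 footprints in stimulated libraries, against 9, 2 and 6 in unstimulated libraries, overlapped as well.

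Eif3d, with 47 footprints in all, did not enter the test because its scaled counts reached the minimum of the filter in too few libraries. It had 12 and 18 footprints in stimulated libraries, against 6, 5 and 6 in unstimulated libraries. In scaled footprints both stimulated libraries lay above every unstimulated one for 5 of the 30 members (Eif2b4, Eif3d, Eif3f, Eif3h and Eif3k). They lay below for 1 (Eif3m). Among the 10647 genes with a footprint the shares were 7.37% above and 3.55% below. That set includes genes with too few footprints to separate the groups in either direction, so it is not a like set for the members. Eif3h had 3 and 6 footprints in stimulated libraries, against 0, 1 and 0 in unstimulated libraries. Eif2b4 had 7 and 4 in stimulated libraries, against 0, 1 and 0 in unstimulated libraries. Eif3m went the other way, with 0 and 1 in stimulated libraries, against 2, 4 and 3 in unstimulated libraries. These last 3 genes have counts of single digits and were not tested.

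Translational efficiency, the change of footprints relative to the change of RNA, was tested as an interaction in edgeR over all 11 libraries. Of the 5 members tested 1, Eif3f, was called, against 4.71% of 255 genes called higher and 0.392% called lower. The difference was 1.96 ± 0.59 on the log2 scale (edgeR adjusted p = 0.0330). Eif3f had entered this test only through the stimulated footprint libraries, where it had 986 and 725 CPM, against 361, 413 and 0 CPM in the unstimulated ones, so it had to differ and its call supports nothing by itself. Without the filter on low counts the difference was 2.05 (edgeR adjusted p = 0.268). The changes behind it were 1.75 ± 0.76 in footprints and -0.05 ± 0.20 in RNA, neither of which passed. The direction was kept under every alternative tried, but these refit the same counts and add no support. The call was lost under 7 of 10 other settings. It was also lost without stimulated RNA replicate 1 (1.91) or 2 (1.91) or unstimulated RNA replicate 1 (1.93) or 3 (1.90). The same held without unstimulated footprint replicate 3 (1.25). Without stimulated footprint replicate 2 or 3, which left a single stimulated footprint library, the difference was 1.25 or 1.71. The values were 0.28 ± 0.48 for Eif3a, 0.31 ± 0.55 for Eif3b, -0.13 ± 0.46 for Eif3c and 0.61 ± 0.56 for Eif3l, none of which passed. Within eIF3, Eif3f took 38 of 269 footprints in stimulated libraries (14.1%, exact 95% interval 10.2 to 18.9%), against 10 of 159 in unstimulated libraries (6.29%, interval 3.06 to 11.3%), while its share of the eIF3 RNA was lower in stimulated cells. These are the same footprint counts that brought Eif3f into the test, so the shares give no further support. Intervals cover counting error only, and replicate footprint libraries differed by more than that.

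The density of footprints per RNA, in which gene length cancels, differed between some of the complexes. It was the share of all 85433 footprints divided by the mean share of RNA over 6 libraries. The 8492 genes of at least 10 CPM had a median of 0.936 and an interquartile range of 0.357 to 1.81. The eIF3 genes together had 1.69 (exact Poisson 95% interval 1.54 to 1.86), against 0.717 (0.605 to 0.844) for the other 17 members. The eIF2 genes were at 0.226 (0.104 to 0.430), with 9 footprints in all. Those of eIF2B were at 1.54 (1.06 to 2.17), and those of eIF5, eIF5B and eIF6 at 0.578 (0.411 to 0.790). Those of eIF1 and eIF1A were at 0.799 (0.539 to 1.14), and those of eIF4H, DENR and MCT-1 at 0.945 (0.654 to 1.32). The intervals of eIF2B and eIF3 overlapped, as did several among the other groups. Single genes differed within the groups, so a summed density is not a trait of each gene. Eif1a was at 1.56 and Eif1ax at 0.206, and Eif1a held 28 of the 30 footprints of eIF1 and eIF1A. Eif2s3x was at 1.09 and Eif2s2 at 0.273, and Eif2s3x held 5 of the 9 footprints of eIF2. Eif6 was at 1.76 and Eif5 at 0.279.

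Within eIF3 the range was wide. Eif3b, a subunit placed near the mRNA entry channel, was at 3.49 (2.56 to 4.66), above 92.6% of genes of at least 10 CPM, and Eif3f at 3.20 (2.36 to 4.25). Eif3e was at 0.419 (0.217 to 0.733), Eif3m at 0.568 (0.272 to 1.05) and Eif3h at 0.671 (0.322 to 1.23). Such pooled values join groups that can differ. Values by group are the mean scaled footprint CPM over the mean main-scale RNA CPM, so they are not quite the same measure. By group, Eif3b was at 3.62 in stimulated and 3.01 in unstimulated cells, and Eif3e at 0.367 in stimulated and 0.432 in unstimulated cells. Eif3f was at 4.97 in stimulated and 1.45 in unstimulated cells, Eif3m at 0.096 in stimulated and 1.15 in unstimulated cells, and Eif3h at 1.11 in stimulated and 0.135 in unstimulated cells. The pooled density of Eif2b4, 5.60 (2.89 to 9.77), rested on 12 footprints and was 10.1 in stimulated and 0.904 in unstimulated cells.

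At the low end 3 members, Eif1, Eif2s1 and Eif3j1, had no footprint in any of the 5 libraries, although their RNA averaged 116, 240 and 41.5 CPM. For Eif2s1 a count of 0 allows a density of up to 0.146, against 0.302 for Eif1 and 0.846 for Eif3j1. Of the 743 genes with RNA at or above that of Eif2s1, 28 (3.77%) had no footprint. Eif5, with the highest RNA of the joining factors, had 3 and 4 footprints in stimulated libraries and 2, 2 and 3 in unstimulated libraries, a density of 0.279 (0.153 to 0.468). Densities can also differ with the mapping of short footprints, for example where a gene has near-identical copies, and this was not tested.

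**Figure D4:**
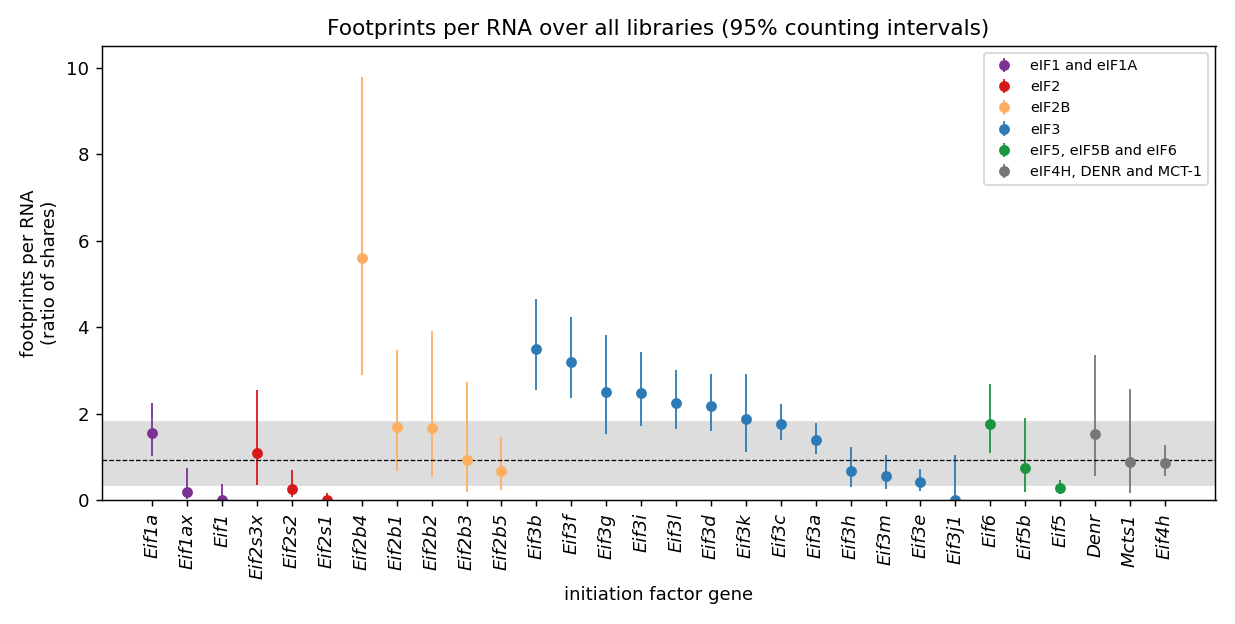
Footprints per RNA of each member over all libraries (vertical axis, marked as a ratio of shares, with RNA as main-scale CPM) with exact Poisson 95% intervals, coloured by complex. The dashed line and grey band are the median, 0.936, and interquartile range, 0.357 to 1.81, of genes of at least 10 CPM. Most eIF3 genes lie above the median, while Eif1, Eif2s1 and Eif3j1 are at 0.

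Other parts of the initiation pathway gave the following counts. For all the lists, the shares of all genes in the main test were 3.58% called higher and 4.66% called lower. Calls of list genes were not followed with single libraries left out. Of 16 genes of the cap-binding complex eIF4F and its partners, Eif4e, the cap-binding protein, rose in the main test (log2 change 0.88 ± 0.19, edgeR adjusted p = 0.0141) and Eif4ebp2, a repressor of eIF4E, fell (-0.88 ± 0.19, edgeR adjusted p = 0.0156). In the restricted test, in which 36.9% of all genes were called higher and 36.4% lower, 12 of 15 rose and 2 fell. Of 14 genes that control eIF2 (kinases, phosphatase subunits and stress response genes), 1 fell in the main test: Eif2ak3, the kinase PERK (-0.90 ± 0.19, edgeR adjusted p = 0.0148). In the restricted test 7 rose and 6 fell, near those shares of all genes. Of 10 near copies and other factors, Abce1, the ribosome recycling factor, rose (0.77 ± 0.21, edgeR adjusted p = 0.0430), and 6 of 9 rose in the restricted test with no fall.

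Of 32 genes for small subunit proteins none passed in the main edgeR test, with 0 at an unadjusted p under 0.05, and 18 rose in the restricted test, against the 36.9% of all genes. Their median RNA log2 change was 0.07 in the main test and 0.16 in the restricted test, against 0.26 and 0.35 for the members. Of 6 elongation genes Eef1e1, a scaffold protein of the tRNA synthetase complex, rose in RNA (1.16 ± 0.19, edgeR adjusted p = 0.00432). In efficiency Eef2, the translocation factor, rose by 1.53 ± 0.34 (edgeR adjusted p = 0.00151) and Rps3 by 1.44 ± 0.43 (edgeR adjusted p = 0.0330). Only 1 elongation gene and 2 small subunit genes entered that test, in which 4.71% of 255 genes were called higher. Over all genes, 13 efficiency calls became 3 with scaling without Gm10800, Gm10801, Gm20594 and Lars2, and 0 with limma voom. The calls of Eef2 and Rps3 were not followed under those settings. The footprint density of the small subunit genes was 0.262 (0.236 to 0.289), that of the elongation genes 0.283 (0.251 to 0.318) and that of the eIF4F list 0.588 (0.513 to 0.670), all below the 1.69 of eIF3. No footprint was counted for 11 of the 32 small subunit genes, 3 of the 16 eIF4F genes and 0 of the 6 elongation genes. The part of read mapping in these densities was not tested.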

How the data were processed

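For each of 6 RNA and 5 footprint libraries the authors deposited unnormalized counts of reads in coding sequences. The aligner named in the submitters' processing notes is STAR 2.5, and the genome build is GRCm38 (mm10). The counting tool, the annotation release and the handling of strands and of reads with several matches are not given in the sources used here. Identifiers were matched to symbols through RefSeq (GRCm38.p6), which named 21838 of 21957.

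From the counts, TMM-scaled CPM and two-sided quasi-likelihood tests were computed with edgeR 4.0.16 in R 4.3.3 (filterByExpr, minimum count 10, minimum total 15, prior count 2). The restricted test kept genes of at least 10 CPM. Efficiency was the interaction of assay and stimulation. DESeq2 1.42.0 and limma voom 3.58.1, other scalings and filters and the omission of single libraries were tried. The tests were checked on simulated counts with 200 genes changed in each comparison, a large part of the 228 footprint and 212 efficiency genes tested there. The simulation did not include the uneven share of Gm10800, Gm10801, Gm20594 and Lars2 between libraries, so the check does not cover it. Intervals are exact Poisson or binomial, at 95%, and cover counting error only, since reads are not independent molecules. Where no footprint was counted, the upper limit was that of the exact interval. A count of 3 was 127 to 269 CPM in a footprint library. The members and gene lists were chosen with earlier results of these data known. Members named with values per library are those that passed a test, the 3 largest and 3 smallest RNA changes, the 5 with most footprints, and the member with most RNA of each group without a call; others named were added after their values were seen.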

Additional observations from a re-analysis of the deposited data

Results flagged for a closer look

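Eif3f drew attention because its change in footprints differed from its change in RNA, by the test of that difference itself: 1.96 on the log2 scale, with 21 and 17 footprints in stimulated libraries, against 4, 6 and 0 in unstimulated libraries. The unstimulated library with 0 was replicate 3, and without it the log2 difference in efficiency did not pass. It entered the test only through the stimulated libraries, and without the filter on low counts the difference did not pass (edgeR adjusted p = 0.268).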

How the results depend on the processing

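The number of members called in RNA was 4 in the main test and ranged from 0 to 14 when each library was left out. It was 0 with RLE size factors, 2 each with scaling without the 4 abundant genes, without a filter on low counts, with DESeq2 and at an adjusted p of 0.01, 17 with a filter on mean counts, and 25 among genes of at least 10 CPM. The share of all genes called was 8.24% in the main test. It rose to 38.4% with the filter on mean counts and 73.3% among genes of at least 10 CPM. It did not always move with the members. It was 8.96% with RLE size factors and, of genes with an adjusted p, 27.2% with DESeq2. It was 8.81% with scaling without the 4 genes, 6.61% without a filter on low counts and 3.33% at an adjusted p of 0.01. Among genes of at least 10 CPM, 25 to 27 members were called when each library was left out. That alternative was chosen after seeing the data. Library totals gave 7 members and 27.6% of all genes, and limma voom gave 5 and 17.9%. When single libraries were left out, the RNA log2 change of Mcts1 ranged from -0.29 to 0.0038, with -0.21 without stimulated RNA replicate 3. The range was -0.29 to -0.020 for Eif2b2, -0.22 to 0.049 for Eif3h, -0.24 to 0.092 for Eif3i, -0.33 to 0.013 for Eif4h and -0.30 to 0.035 for Eif3k, and these 5 passed as lower only without unstimulated RNA replicate 2. Eif3f (-0.39 to -0.080) passed as lower in that case too, and Eif2b4 (-0.35 to -0.053) in that case and without stimulated RNA replicate 3. The cause was not tested.

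Members called in footprints were 0 to 1 when libraries were left out. Members called for efficiency were 1 in the main test, 0 to 1 when libraries were left out, and 0 without a filter on low counts, with a filter on mean counts, with scaling without the 4 genes, among genes of at least 10 CPM, with limma voom and at an adjusted p of 0.01. The log2 change of the summed members was 0.33 in RNA (0.10 with RLE size factors, 0.14 to 0.46 with libraries left out), 0.50 in footprints (0.76 with TMM over genes of at least 10 CPM, 0.31 to 0.68) and 0.17 in footprints per RNA (0.40 with RLE size factors, -0.026 to 0.36).

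Whether the replicate numbers pair the libraries could not be settled. Deviations of same-numbered stimulated and unstimulated RNA libraries from their group means correlated at -0.80, 0.64 and 0.76. Not every library correlated best with its own number. With so few libraries per group such deviations depend on each other, so they cannot show that the libraries are unpaired. With the replicate block, 3 members were called in RNA, 0 in footprints and 0 for efficiency, and 25 in RNA among genes of at least 10 CPM. The block called 12.7% of all genes in RNA, against 8.24% without it, and 74% among genes of at least 10 CPM.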
